A study of Mus musculus with 12 samples.

Results

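The AP-1 transcription factor genes Fos, Fosb, Fosl1, Fosl2, Jun, Junb and Jund were followed together with 3 other immediate early genes, Egr2, Ier2 and Ier3. These 10 genes were taken by exact symbol from the 22878 symbols in the deposited tables, with the longest transcript model standing for each gene, and each of them had 1 model at 1 locus. Messenger RNA was measured in 12 libraries of mouse embryonic stem (ES) cells and cells differentiated from them. DKO cells are labelled as lacking the histone methyltransferases SUV420H1 and SUV420H2, KO cells as lacking SUV420H2, and WT cells carry neither change. Each genotype was sampled in 2 libraries of ES cells, in 1 library at day 8 of differentiation and in 1 at day 12. All 12 share the label of growth on gelatin with 1.5 µM of the GSK3 inhibitor that the labels spell CHIR9901, over several passages that removed feeder cells. The labels do not describe the differentiation medium or say whether a genotype is 1 clone.

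AP-1 is a dimer of leucine zipper proteins, most often of a Jun protein with a Fos protein, that binds short palindromic DNA elements in promoters and enhancers. Immediate early genes are transcribed within minutes of a growth factor or stress signal, with no need for new protein synthesis, and most of their messengers are short-lived. Jund is known for steadier levels than Fos and Jun in many cell types.

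Reads counted in genes ranged from 22538336 in KO day 8 to 26675600 in WT day 12. Suv420h2, the gene targeted in both mutants, was at 5.59 and 3.37 RPKM (reads scaled to exon length and library size) in DKO ES cells, at 4.41 and 3.95 RPKM in KO ES cells and at 28.6 and 25.8 RPKM in WT ES cells. Suv420h1 was at 5.30 and 5.77 RPKM in DKO ES cells and at 3.78 and 4.18 RPKM in WT ES cells. A level over a whole transcript does not check the loss of SUV420H1, so DKO means here the libraries labelled so. The labels do not say that ES libraries came from separate cultures. The p-values of the ES fit therefore measure the spread between these libraries, which may be technical. In fits with differentiated cells, which have 1 library per genotype and day, changes with day that differ between genotypes also count as spread. ES cell markers (Pou5f1, Nanog and 5 others) summed to 1513 and 1815 RPKM in DKO ES cells, to 2426 and 2572 RPKM in KO ES cells and to 2974 and 3027 RPKM in WT ES cells. Zfp42 (Rex1) alone was at 90.7 and 85.1 RPKM in DKO ES cells, at 66.9 and 76.2 RPKM in KO ES cells and at 752.9 and 707.5 RPKM in WT ES cells. In DKO against WT ES cells, Zfp42, Utf1, Dppa5a, Nanog and Pou5f1 were lower (log2 fold change -3.05, -1.875, -1.32, -1.06 and -0.35). Esrrb was higher (0.78), and Sox2 did not pass the test (-0.12, edgeR adjusted p = 0.38). In KO against WT ES cells, Zfp42, Utf1 and Esrrb were lower (log2 fold change -3.31, -0.63 and -0.32), Nanog (1.46) and Dppa5a (0.90) were higher, and Pou5f1 and Sox2 did not pass the test (0.06 and -0.28, edgeR adjusted p = 0.704 and 0.0739).

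The bases just upstream of Jun, Fos, Jund and Junb are shown because these were the genes called in ES cells of both mutants against WT, Jun, Fos and Jund up and Junb down. They are the 250 bases before the RefSeq start of each gene in GRCm38.p6, a later build than the mm9 of the read alignment, on the gene's own strand. Capitals mark the motifs found there.
Jun, chr4:95052223-95052472, minus strand: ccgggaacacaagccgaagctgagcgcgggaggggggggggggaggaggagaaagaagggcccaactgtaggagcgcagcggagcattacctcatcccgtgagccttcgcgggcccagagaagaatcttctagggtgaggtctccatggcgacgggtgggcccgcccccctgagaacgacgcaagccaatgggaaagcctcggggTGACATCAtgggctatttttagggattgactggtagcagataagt
Fos, chr12:85473640-85473889, plus strand: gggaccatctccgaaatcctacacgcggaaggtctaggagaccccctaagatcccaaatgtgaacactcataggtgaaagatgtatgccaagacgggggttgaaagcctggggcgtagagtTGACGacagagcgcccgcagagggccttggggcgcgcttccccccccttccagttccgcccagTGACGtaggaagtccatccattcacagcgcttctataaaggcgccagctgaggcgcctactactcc
Jund, chr8:70697489-70697738, plus strand: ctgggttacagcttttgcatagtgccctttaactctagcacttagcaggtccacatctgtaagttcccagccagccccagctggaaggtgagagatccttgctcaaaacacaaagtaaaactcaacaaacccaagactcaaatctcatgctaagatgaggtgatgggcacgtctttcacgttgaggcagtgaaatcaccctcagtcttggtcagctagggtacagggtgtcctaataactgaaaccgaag
Junb, chr8:84978749-84978998, minus strand: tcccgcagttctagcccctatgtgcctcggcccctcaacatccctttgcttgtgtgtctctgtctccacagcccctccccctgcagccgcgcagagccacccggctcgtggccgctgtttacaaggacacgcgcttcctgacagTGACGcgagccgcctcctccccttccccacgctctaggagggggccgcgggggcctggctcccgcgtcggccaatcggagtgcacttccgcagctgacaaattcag
The capitals in Jun are TGACATCA, an AP-1-like element 45 to 38 bases before the start. Those in Fos, 129 to 125 and 66 to 62 bases before the start, and in Junb, 106 to 102 bases before it, are TGACG, the core shared with the cAMP response element. On either strand, TGACATCA occurs in 2.93% of 32817 RefSeq windows of this length and TGACG, which also lies within the full element TGACGTCA, in 17.7%. The full element occurs in 1.55% and the AP-1 element TGAGTCA in 4.46% of them, and neither is in the 4 windows shown. Windows were found for 8 of the 10 genes. Fosb has TGACG 60 to 56 bases before its start, while the windows of Fosl2, Jund and Ier3 hold none of the 5 motifs searched, the fifth being the CArG box of serum response factor (1.47% of windows). Egr2 has 5 windows, from different starts, and was the 1 gene of the 8 with CArG boxes. One window holds CCTTTTTTGG, 3 overlapping windows hold CCATATATGG with TGACG on both strands, and 1 holds no match. These matches describe the letters alone.

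Jun, a strong transcriptional activator and the founding member of its family, was higher in both mutants and highest in DKO ES cells. It was at 23.8 and 20.9 RPKM in DKO ES cells, at 8.83 and 9.64 RPKM in KO ES cells and at 3.20 and 3.30 RPKM in WT ES cells. The 3 genotypes did not overlap. Such separation of libraries was not counted over all genes, here or for the genes below. It therefore describes the values alone and sets none of these genes apart. The log2 fold change was 2.79 in DKO against WT (SE 0.13, edgeR adjusted p = 7.33e-09), 1.55 in KO against WT (SE 0.12, adjusted p = 1.68e-06) and 1.24 in DKO against KO (SE 0.12, adjusted p = 1.73e-06). These 3 calls held in every alternative run, including each fit with 1 library left out.

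**Figure D1:**
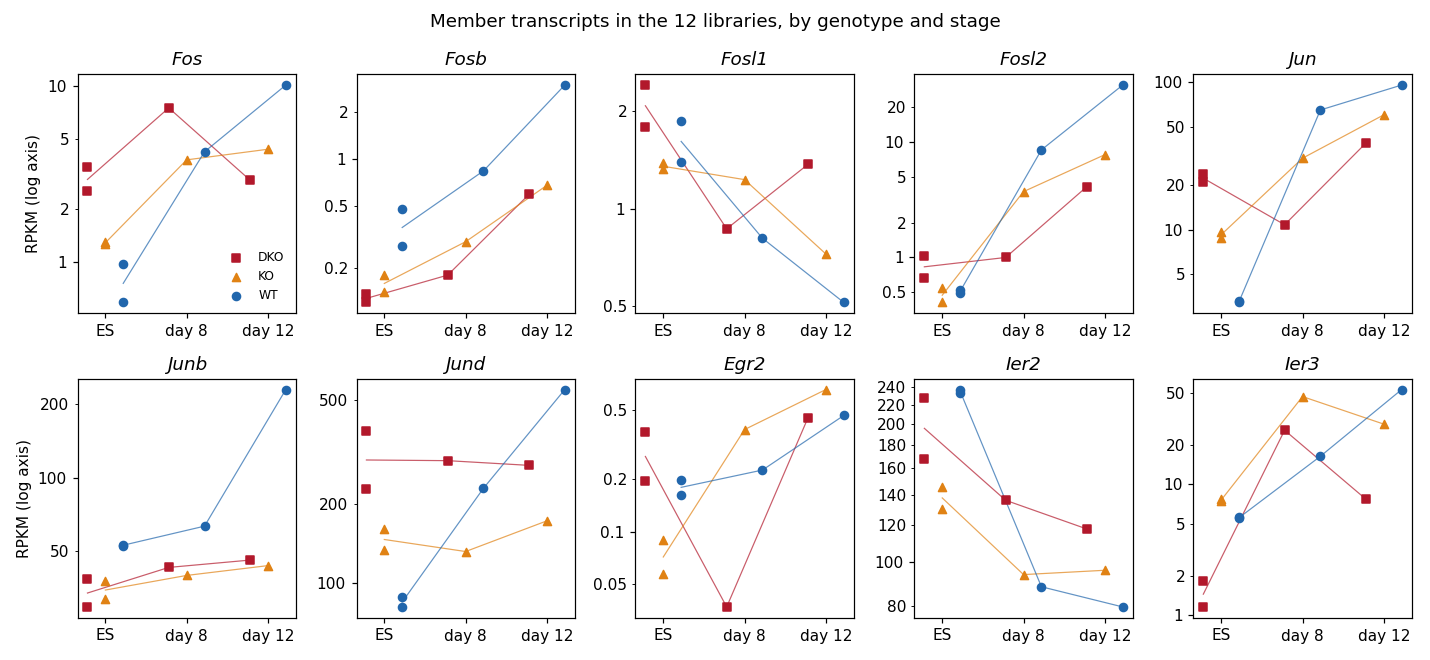
Deposited RPKM of each of the 10 genes (logarithmic axes that differ between genes) in ES cells, at day 8 and at day 12, with DKO, KO and WT points from left to right at each stage and 1 point per library. In ES cells the Jun points of DKO (20.9 and 23.8 RPKM) lie above those of KO (8.83 and 9.64 RPKM) and WT (3.20 and 3.30 RPKM), and at both days the WT points of Jun and Fosl2 lie above those of the mutants.

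Jund, the family member with the most RNA per length in these cells, moved the same way as Jun. It was at 380.3 and 227.7 RPKM in DKO ES cells, at 133.3 and 160.2 RPKM in KO ES cells and at 88.1 and 80.7 RPKM in WT ES cells. The genotypes did not overlap, and the DKO libraries lay far apart. The log2 fold change was 1.85 in DKO against WT (SE 0.18, edgeR adjusted p = 3.09e-06), 0.84 in KO against WT (SE 0.18, adjusted p = 0.00238) and 1.01 in DKO against KO (SE 0.18, adjusted p = 0.000308). With all 12 libraries in the fit the KO call was lost (adjusted p = 0.146).

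Junb, which often opposes Jun on the same elements, was lower in both mutants. It was at 38.4 and 29.6 RPKM in DKO ES cells, at 31.9 and 37.7 RPKM in KO ES cells and at 53.1 and 52.6 RPKM in WT ES cells. Both mutants lay below WT and overlapped each other. Junb fell by 0.63 on the log2 scale in DKO against WT (SE 0.13, edgeR adjusted p = 0.00111) and by 0.56 in KO against WT (SE 0.13, adjusted p = 0.00427), while DKO against KO gave -0.07 (SE 0.13, adjusted p = 0.648). Without KO ES replicate 1 the KO call was lost (adjusted p = 0.0706), and with all 12 libraries in the fit both calls were lost (adjusted p = 0.249 in DKO and 0.4 in KO).

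The make-up of Jun family RNA differed between genotypes. Junb held 8.68% and 10.6% of the summed RPKM of the 3 Jun genes in DKO ES cells, 18.3% and 18.2% in KO ES cells and 36.8% and 38.5% in WT ES cells. Jund held 85.9% and 81.8% in DKO ES cells, 76.6% and 77.2% in KO ES cells and 61.0% and 59.1% in WT ES cells. The family sum was 442.5 and 278.2 RPKM in DKO ES cells, 174.0 and 207.6 RPKM in KO ES cells and 144.4 and 136.7 RPKM in WT ES cells. These shares were chosen after the single genes' values were seen and carry no test.

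Fos, the classic serum-induced gene that pairs with Jun proteins, was also higher in DKO ES cells, at levels far below those of the Jun family. It was at 3.46 and 2.53 RPKM in DKO ES cells, at 1.28 and 1.31 RPKM in KO ES cells and at 0.976 and 0.592 RPKM in WT ES cells. The genotypes did not overlap. Its log2 fold change was 1.94 in DKO against WT (SE 0.27, edgeR adjusted p = 5.32e-05) and 1.17 in DKO against KO (SE 0.26, adjusted p = 0.00153, but 0.131 with all 12 libraries in the fit). For KO against WT it was 0.76 (SE 0.28, adjusted p = 0.0423), a call lost without WT ES replicate 2 (log2 fold change 0.45, adjusted p = 0.357), KO ES replicate 1 (adjusted p = 0.121) or KO ES replicate 2 (adjusted p = 0.148), in both limma fits (adjusted p = 0.0852 and 0.0646) and with all 12 libraries in the fit (adjusted p = 0.436).

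The other Fos family genes were low in ES cells. Fosl1 (also called Fra-1) was at 2.40 and 1.79 RPKM in DKO ES cells, at 1.38 and 1.32 RPKM in KO ES cells and at 1.86 and 1.39 RPKM in WT ES cells, and it passed no test at this stage. Its log2 fold change was 0.59 in DKO against KO (SE 0.25, edgeR adjusted p = 0.0545), which passed without DKO ES replicate 2 (adjusted p = 0.0206), with RLE scaling (adjusted p = 0.0491), without the filter on low values (adjusted p = 0.0446) and in both limma fits (adjusted p = 0.0351 and 0.0408). It was 0.37 in DKO against WT (adjusted p = 0.216) and -0.23 in KO against WT (adjusted p = 0.513). Fosb and Fosl2 (also called Fra-2) stayed under the filter of 1 RPKM in 2 libraries. Fosb was at 0.121 and 0.136 RPKM in DKO ES cells, 0.142 and 0.181 RPKM in KO ES cells and 0.478 and 0.278 RPKM in WT ES cells. With no filter Fosb had a log2 fold change of -1.56 in DKO against WT (SE 0.45, edgeR adjusted p = 0.00374) and -1.22 in KO against WT (SE 0.44, adjusted p = 0.0284). Fosl2 was at 1.04 and 0.664 RPKM in DKO ES cells, 0.409 and 0.545 RPKM in KO ES cells and 0.526 and 0.494 RPKM in WT ES cells, and with no filter its DKO value was 0.71 against WT (SE 0.24, adjusted p = 0.0128) and 0.80 against KO (SE 0.24, adjusted p = 0.00472). With all 12 libraries in the fit these were 0.73 (adjusted p = 0.0769) and 0.79 (adjusted p = 0.0549), and neither passed.

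Ier2, a short-lived nuclear protein of the immediate early response, was among the most abundant of the 10 genes. It was at 227.3 and 167.9 RPKM in DKO ES cells, at 130.3 and 145.7 RPKM in KO ES cells and at 233.3 and 237.3 RPKM in WT ES cells. KO lay below both others. Ier2 fell by 0.73 on the log2 scale in KO against WT (SE 0.13, edgeR adjusted p = 0.000706) and was higher in DKO against KO by 0.48 (SE 0.13, adjusted p = 0.00572, but 0.0777 without KO ES replicate 1). In DKO against WT its value was -0.25 (SE 0.13, adjusted p = 0.11), and without DKO ES replicate 1 it was -0.41 (adjusted p = 0.00231).

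Ier3, a stress-induced regulator of cell survival also called IEX-1, went the other way from Jun in DKO ES cells. It was at 1.81 and 1.15 RPKM in DKO ES cells, at 7.75 and 7.44 RPKM in KO ES cells and at 5.52 and 5.61 RPKM in WT ES cells. The genotypes did not overlap. Ier3 fell by 1.91 on the log2 scale in DKO against WT (SE 0.22, edgeR adjusted p = 1.25e-05, but 0.0674 with all 12 libraries in the fit) and by 2.40 in DKO against KO (SE 0.22, adjusted p = 1.38e-06). In KO against WT its value was 0.49 (SE 0.20, adjusted p = 0.0656), which passed without DKO ES replicate 1 (adjusted p = 0.0179) or DKO ES replicate 2 (adjusted p = 0.0177). Egr2, a zinc finger factor of hindbrain and Schwann cells, stayed between 0.0577 and 0.373 RPKM in the 6 ES libraries and was not tested there.

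**Figure D2:**
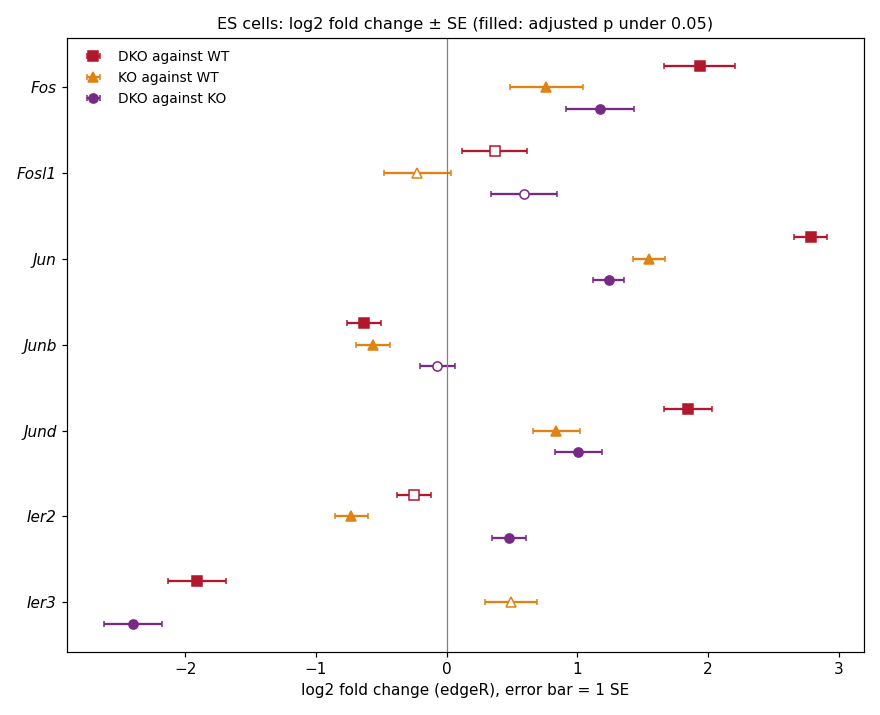
Log2 fold changes (edgeR, bars show the standard error) of the genes tested among the 10 in DKO against WT, KO against WT and DKO against KO ES cells. Jun (2.79, 1.55 and 1.24), Jund (1.85, 0.84 and 1.01) and Fos (1.94, 0.76 and 1.17) lie above 0 in all 3 comparisons, and Ier3 lies at -1.91, 0.49 and -2.40.

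Counted over the 7 genes tested in ES cells, 3 were higher and 2 lower in DKO against WT, where 63.9% of 12044 genes were called (32.2% higher and 31.7% lower). KO against WT had 3 higher and 2 lower, with 42.7% of genes called (23.5% higher and 19.2% lower), a share of 27.4% without KO ES replicate 2, 28.1% without WT ES replicate 2 and 28.6% without WT ES replicate 1. In DKO against KO 4 were higher and 1 lower, with 67.3% of genes called (33.3% higher and 34.1% lower). The comparisons share libraries. Of these 7 genes, Fos passed the filter through the mutant libraries alone. Fosb, with its highest ES values in WT, stayed under the filter and is not in the counts. The median log2 fold change of the 7 genes was 0.37 in DKO against WT, 0.49 in KO against WT and 0.59 in DKO against KO, and that of the 12044 genes was -0.0069, -0.0072 and -0.020. On chromosome 8, which carries Junb, Jund and Ier2, the median of 591 genes was 0.12 in DKO against WT and -0.06 in KO against WT. On chromosome 4, which carries Jun, the median of 688 genes was -0.05 in DKO against WT.

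Other genes of the same response were counted by list. Over all 12044 genes tested, 32.2% were higher and 31.7% lower in DKO against WT, and 23.5% and 19.2% in KO against WT. In DKO against KO these shares were 33.3% and 34.1%. Of 10 tested AP-1 partners and small Maf factors, 9 were higher and none lower in DKO against WT ES cells, with Atf3, a stress-induced partner of Jun, at a log2 fold change of 4.29, Jdp2, a repressive Jun partner, at 2.77 and Maff at 2.58. In KO against WT 4 were higher and 1 lower, with Jdp2 at 1.24 and Batf3 at -2.33. Of 31 tested immediate early genes that do not encode transcription factors, 23 were higher and 3 lower in DKO against WT, with the smallest adjusted p for the MAP kinase phosphatase Dusp4 (log2 fold change 3.22), Phlda1 (3.44) and the kinase Plk2 (2.46). In KO against WT 14 were higher and 7 lower, with Plk2 at 1.25, the small GTPase Rhob at 1.09 and Dusp6, a phosphatase of ERK, at -1.81. In DKO against KO the counts were 8 higher and none lower for the partners and 20 higher and 4 lower for the second list.

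For the lists that follow, the shares over all genes were 32.2% higher and 31.7% lower in DKO against WT. In KO against WT they were 23.5% and 19.2%, and in total 63.9% of genes were called in DKO and 42.7% in KO. Of 14 tested immediate early transcription factors outside the 10, 7 were higher and 2 lower in DKO against WT ES cells, with Klf6 at 2.86, Cebpd at 2.59 and Myc at -3.23. In KO against WT 4 were higher and 5 lower, with Cebpb at 1.16, Klf6 at 1.03 and Myc at -1.67. Known AP-1 targets moved both ways. Of 10 tested, 6 were higher and 3 lower in DKO against WT and 5 were higher and 4 lower in KO against WT. The secreted phosphoprotein Spp1 was higher in both (1.72 in DKO and 1.38 in KO). Upstream, 4 of 14 tested MAP kinase pathway genes were higher and 5 lower in DKO against WT, with Rps6ka1 at -1.45, Map2k6 at -2.63 and Map3k1 at 0.75, and 4 were higher and 3 lower in KO against WT. Serum response factor itself, Srf, was at -0.63 in DKO, where 2 of 6 tested genes of its list were higher and 1 lower.

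**Figure D3:**
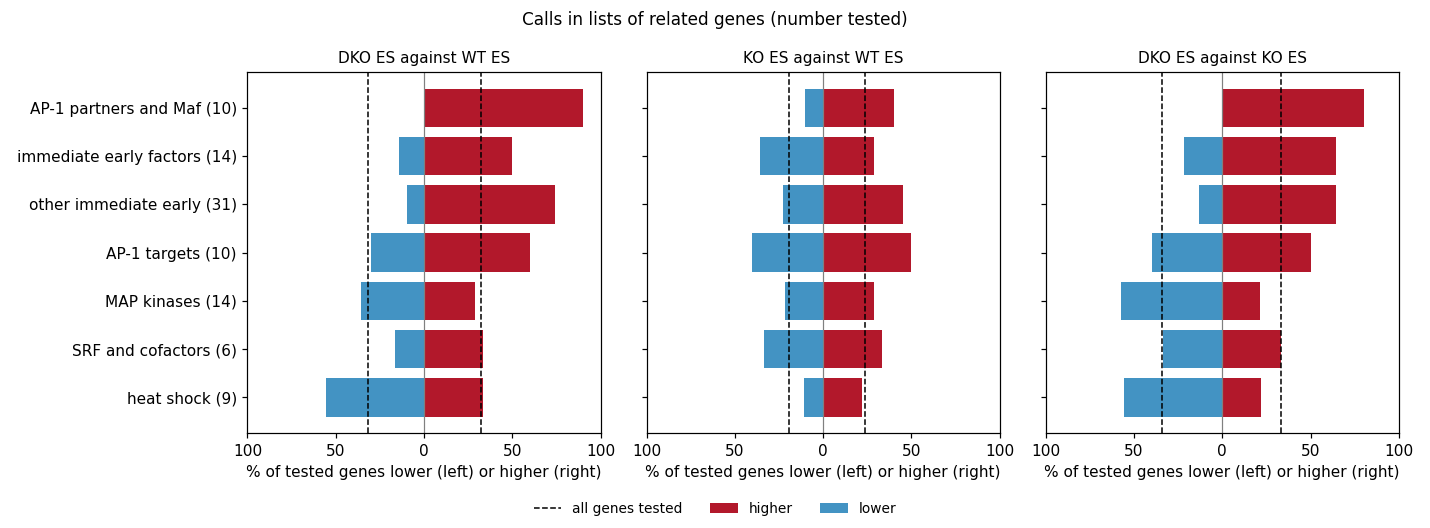
Share of the tested genes of each related list that edgeR called higher (right) or lower (left), in percent, for DKO against WT, KO against WT and DKO against KO ES cells, with dashed lines at the share over all genes tested. In DKO against WT the AP-1 partner list has 9 higher and none lower and the non-factor immediate early list 23 higher and 3 lower, while the MAP kinase list has 4 higher and 5 lower.

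Heat shock genes, which respond to other stresses, summed to 953.7 and 980.2 RPKM in DKO ES cells, to 1215 and 1322 RPKM in KO ES cells and to 1076 and 1101 RPKM in WT ES cells. Of 9 tested, 3 were higher and 5 lower in DKO against WT, where 32.2% of all genes were higher and 31.7% lower. Endoderm markers summed to between 22.9 and 31.3 RPKM in DKO ES cells, 4.93 and 6.80 RPKM in KO ES cells and 3.34 and 3.44 RPKM in WT ES cells, and 4 of 4 tested were higher in DKO against WT, with Gata4 at a log2 fold change of 3.71. Their part in the changes of Jun, Jund and Fos was not tested. In such bulk samples, fewer cells of a type and less RNA per cell cannot be told apart.

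After differentiation Jun RNA was higher than in ES cells in KO and WT cells, while the change in DKO cells did not pass the test. In DKO Jun was at 10.8 RPKM at day 8 and 38.6 RPKM at day 12, against 23.8 and 20.9 RPKM in DKO ES cells, so that day 8 lay below both ES libraries and day 12 above them. In KO it was at 30.5 and 60.1 RPKM at these days, against 8.83 and 9.64 RPKM in KO ES cells. In WT it was at 64.8 and 95.7 RPKM, against 3.20 and 3.30 RPKM in WT ES cells. The differentiated libraries of KO and WT lay above their ES libraries. The log2 fold change of differentiated against ES cells was -0.18 in DKO (SE 0.22, edgeR adjusted p = 0.586), 2.05 in KO (SE 0.22, adjusted p = 0.00127) and 4.49 in WT (SE 0.25, adjusted p = 1.36e-05). Without DKO day 12 the DKO value was -0.64 (adjusted p = 0.0471). The change differed from that of WT by -4.67 in DKO (SE 0.32, adjusted p = 8.36e-05) and by -2.44 in KO (SE 0.31, adjusted p = 0.00386), and both differences passed in every alternative run. Here and below, such a difference also takes in the one between mutant and WT in ES cells.

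Fosl2, a Fos protein of bone and mesenchymal cells, had the same order of genotypes. It was at 1.0 RPKM at day 8 and 4.10 RPKM at day 12 in DKO, at 3.71 and 7.74 RPKM in KO and at 8.51 and 30.9 RPKM in WT, while the 6 ES libraries lay between 0.409 and 1.04 RPKM. The WT libraries lay above the DKO and KO library of the same day. Against ES cells its log2 fold change was 1.19 in DKO (SE 0.28, edgeR adjusted p = 0.0232), 3.35 in KO (SE 0.30, adjusted p = 0.000628) and 4.87 in WT (SE 0.32, adjusted p = 2.32e-05). The DKO call was lost without WT ES replicate 1 or 2, DKO ES replicate 2, DKO day 8 or DKO day 12 (adjusted p from 0.0563 to 0.18).

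The difference of the Fosl2 change from that of WT was -3.69 in DKO (SE 0.41, edgeR adjusted p = 0.000422) and -1.52 in KO (SE 0.40, adjusted p = 0.0376). The KO difference was lost without any 1 of WT ES replicate 1 or 2, KO ES replicate 1 or 2, DKO ES replicate 2, WT day 12 or KO day 12 (adjusted p from 0.0522 to 0.148) and in limma with a pseudocount of 0.1 (adjusted p = 0.0519). Fosl2 held 10.4% and 45.6% of Fos family RPKM at days 8 and 12 in DKO, 41.0% and 57.2% in KO and 59.1% and 69.4% in WT. In each ES library Fosl1 or Fos held the most, with Fos at 49.3% and 49.4% in DKO and Fosl1 at 48.4% and 50.5% in WT.

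Fos itself was at 7.54 and 2.93 RPKM at days 8 and 12 in DKO, at 3.82 and 4.39 RPKM in KO and at 4.25 and 10.2 RPKM in WT. The DKO day 12 library lay within the range of DKO ES cells (3.46 and 2.53 RPKM). The log2 fold change against ES cells was 0.77 in DKO (SE 0.57, edgeR adjusted p = 0.367), 1.50 in KO (SE 0.58, adjusted p = 0.0833) and 3.09 in WT (SE 0.62, adjusted p = 0.00286), the last being 1.93 without WT day 12 and 3.99 without WT day 8. The KO value passed without any 1 of the day 8 and day 12 libraries of DKO or WT (adjusted p from 0.0126 to 0.0239), with DESeq2 (adjusted p = 0.0341) and in limma with a pseudocount of 0.1 (adjusted p = 0.044). The difference of the DKO change from that of WT was -2.32 (SE 0.84, adjusted p = 0.0543). It passed without WT day 8 (adjusted p = 0.00332) or DKO day 8 (adjusted p = 0.00654), with DESeq2 (adjusted p = 0.0111), with a filter of 5 RPKM (adjusted p = 0.0481) and in limma with a pseudocount of 0.1 (adjusted p = 0.0299). In KO the difference was -1.59 (adjusted p = 0.213, and 0.0216 without WT day 8).

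Jund and Junb were at their highest in the WT day 12 library. Jund was at 292.5 and 280.7 RPKM at days 8 and 12 in DKO, at 131.5 and 172.2 RPKM in KO and at 229.5 and 547.1 RPKM in WT. Junb was at 42.9 and 46.0 RPKM in DKO, at 39.8 and 43.6 RPKM in KO and at 63.3 and 229.4 RPKM in WT. Jund against ES cells had values of -0.11 in DKO (SE 0.35, edgeR adjusted p = 0.842), of -0.13 in KO (SE 0.34, adjusted p = 0.803) and of 2.01 in WT (SE 0.36, adjusted p = 0.00167), the last being 1.31 without WT day 12 and 2.62 without WT day 8. Its change differed from that of WT by -2.12 in DKO (SE 0.50, adjusted p = 0.0107), lost without WT ES replicate 2 (adjusted p = 0.0538) or DKO day 12 (adjusted p = 0.0519), and -1.46 without WT day 12 and -2.77 without WT day 8.

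In KO the difference of the Jund change was -2.13 (SE 0.50, edgeR adjusted p = 0.0248). It was lost without any 1 of the KO or WT ES libraries, KO day 8 or KO day 12 (adjusted p from 0.0514 to 0.117), and was -1.43 without WT day 12 and -2.77 without WT day 8. Junb had a log2 fold change of 0.35 in DKO (adjusted p = 0.578), 0.12 in KO (adjusted p = 0.849) and 1.21 in WT (SE 0.42, adjusted p = 0.0351), the last being 0.10 without WT day 12 (adjusted p = 0.644) and 2.06 without WT day 8. The Junb call in WT was also lost without any 1 of the 6 ES libraries (adjusted p from 0.0553 to 0.146). Its difference from WT was -0.85 in DKO (adjusted p = 0.276) and -1.09 in KO (adjusted p = 0.239), and without WT day 8 it was -1.75 in DKO (adjusted p = 0.000557) and -2.00 in KO (adjusted p = 0.00109).

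Ier3 was higher after differentiation in each genotype, with libraries far apart. It was at 26.0 and 7.70 RPKM at days 8 and 12 in DKO, at 47 and 28.9 RPKM in KO and at 16.4 and 53.2 RPKM in WT, all above the ES libraries of the same genotype. The order of the days differed between genotypes. The log2 fold change was 3.39 in DKO (SE 0.76, edgeR adjusted p = 0.0191), 2.13 in KO (SE 0.69, adjusted p = 0.0499) and 2.64 in WT (SE 0.72, adjusted p = 0.013). In DKO the call was lost without DKO ES replicate 1 (adjusted p = 0.081), DKO ES replicate 2 (adjusted p = 0.151) or DKO day 8 (log2 fold change 1.95, adjusted p = 0.126), and the value was 4.41 without DKO day 12. The KO call was lost without any 1 of the 6 ES libraries or of KO day 8 and KO day 12 (adjusted p from 0.0786 to 0.206), with RLE scaling (adjusted p = 0.0513) and with the most-read transcript models (adjusted p = 0.0554). In WT the value was 0.74 without WT day 12 (adjusted p = 0.0955) and 3.87 without WT day 8, and the call was lost without WT ES replicate 1 or 2 (adjusted p = 0.0733 and 0.0719). The differences from the WT change were 0.75 in DKO (adjusted p = 0.59) and -0.51 in KO (adjusted p = 0.747). Without WT day 12 they were 2.49 in DKO (adjusted p = 0.00232) and 1.41 in KO (adjusted p = 0.0485), and without WT day 8 the KO difference was -1.76 (adjusted p = 0.0184).

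Ier2 was lower after differentiation in each genotype, and Fosl1 in WT. Ier2 was at 136.2 and 117.9 RPKM at days 8 and 12 in DKO, at 93.8 and 95.9 RPKM in KO and at 88.3 and 79.8 RPKM in WT, all below the ES libraries of the same genotype. Ier2 fell by 0.71 on the log2 scale in DKO (SE 0.16, edgeR adjusted p = 0.0193), by 0.71 in KO (SE 0.16, adjusted p = 0.0146) and by 1.61 in WT (SE 0.16, adjusted p = 0.000111). The DKO call was lost without WT ES replicate 1 or 2, DKO ES replicate 1 or DKO day 12 (adjusted p from 0.0529 to 0.125) and the KO call without any 1 of the 4 KO libraries (adjusted p from 0.0512 to 0.1). The change in DKO differed from that in WT by 0.90 (SE 0.23, adjusted p = 0.014), lost without WT ES replicate 2 (adjusted p = 0.0562) or DKO day 8 (adjusted p = 0.0543), and the change in KO by 0.91 (SE 0.23, adjusted p = 0.0313), lost without any 1 of the WT or KO ES libraries, WT day 8, KO day 8 or KO day 12 (adjusted p from 0.0552 to 0.137).

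Fosl1 was at 0.866 and 1.37 RPKM at days 8 and 12 in DKO, at 1.23 and 0.725 RPKM in KO and at 0.810 and 0.514 RPKM in WT. In each genotype both days lay below the ES libraries. Its log2 fold change against ES cells was -0.97 in DKO (adjusted p = 0.12), -0.66 in KO (adjusted p = 0.244) and -1.45 in WT (SE 0.41, edgeR adjusted p = 0.0142), and the WT call was lost without WT ES replicate 1 (adjusted p = 0.0772) or WT day 12 (adjusted p = 0.0616). The Fosl1 difference from the WT change was 0.48 in DKO (SE 0.56, adjusted p = 0.525) and 0.79 in KO (SE 0.56, adjusted p = 0.363). Fosb was at 0.181 and 0.593 RPKM in DKO, 0.296 and 0.677 RPKM in KO and 0.838 and 2.96 RPKM in WT, and with no filter its change in WT was 1.90 (SE 0.42, adjusted p = 0.0046). Egr2 stayed between 0.0372 and 0.651 RPKM in the 6 differentiated libraries. With no filter it was higher in KO differentiated against KO ES cells, by 2.62 on the log2 scale (SE 0.75, edgeR adjusted p = 0.0357), at 0.384 and 0.651 RPKM against 0.0577 and 0.0892 RPKM.

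**Figure D4:**
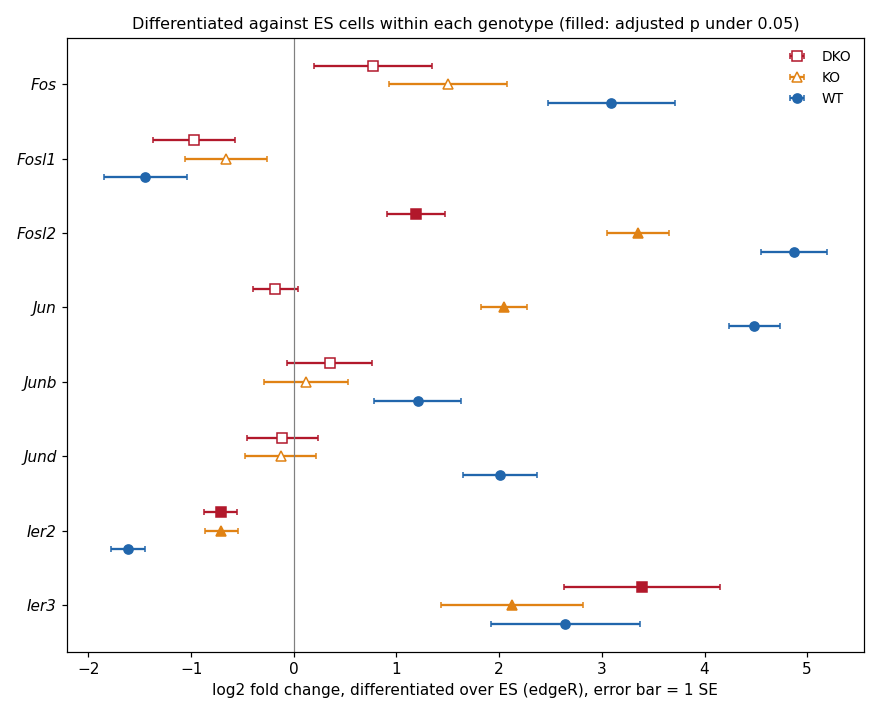
Log2 fold changes (edgeR, bars show the standard error) of the genes tested among the 10 in differentiated against ES cells, within DKO, KO and WT. Jun lies at -0.18 in DKO, 2.05 in KO and 4.49 in WT, Fosl2 at 1.19, 3.35 and 4.87, and Ier2 below 0 in all 3 genotypes.

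Counted over the 8 genes tested in these fits, 2 were higher and 1 lower in DKO differentiated against DKO ES cells, where 19.7% of 13429 genes were called (10.4% higher and 9.24% lower). In KO 3 were higher and 1 lower, with 29.3% of genes called (15.8% higher and 13.5% lower), and in WT 6 were higher and 2 lower, with 61.1% of genes called (31.2% higher and 29.8% lower). Fosl2 passed the filter of these fits through its differentiated libraries, as it stayed under it in the ES fit. The difference from the WT change was called for 4 genes in DKO, 3 of them negative, against 42% of all genes (21.1% positive and 20.8% negative). It was called for 4 in KO, 3 of them negative, against 16.3% of all genes (9.07% positive and 7.24% negative). Leaving out KO ES replicate 2 or 1 gave a KO share of 4.01% and 4.49%, leaving out WT ES replicate 2 or 1 gave 2.95% and 3.14%, and leaving out WT day 12 gave 29.3%. The DKO share was 27.0% without WT ES replicate 1 or 2. Within KO the share of genes called was 7.58% and 9.21% without KO ES replicate 2 or 1 and 13.6% without KO day 12. Within DKO it was 3.78% and 10.3% without DKO ES replicate 2 or 1, from 11.4% to 13% without any 1 of WT ES replicate 1 or 2, KO ES replicate 1, DKO day 8 or DKO day 12, and 34.4% and 34.2% without WT day 8 or WT day 12. Averaged over genotypes, 4 genes were higher and 2 lower in differentiated against ES cells, with 35.8% of genes called (20.1% higher and 15.7% lower). The higher ones were Fosl2 (3.34), Ier3 (2.72), Jun (2.18) and Fos (1.77), and the lower ones Fosl1 (-1.01) and Ier2 (-1.0). Junb had a value of 0.58 (adjusted p = 0.151) and Jund of 0.57 (adjusted p = 0.277). The share over all genes was 23.9% without KO day 12, and 21.9% and 22% when WT ES replicate 2 or 1 was left out. The Jun call was lost without any 1 of WT ES replicate 1 or 2, KO ES replicate 1 or 2, WT day 8 or KO day 12 (adjusted p from 0.0555 to 0.0985), and this mean covers the differing changes of the genotypes given above.

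Sums of cell type markers differed between these libraries, by genotype and by day. Fibroblast and mesenchyme markers summed to between 1.93 and 4.72 RPKM in DKO differentiated cells, 19.2 and 198.6 RPKM in KO and 368.4 and 689.5 RPKM in WT. ES cell markers summed to between 1207 and 2417 RPKM in DKO differentiated cells, 787.9 and 1649 RPKM in KO and 108.3 and 256.6 RPKM in WT. At days 8 and 12 endoderm markers summed to 35.7 and 408.6 RPKM in DKO and to 31.7 and 352.3 RPKM in KO. In WT they summed to 319.2 and 780.3 RPKM. Blood and endothelium markers at these days summed to 15.1 and 10.4 RPKM in DKO, 100.7 and 293.9 in KO and 3437 and 52.3 in WT. Cardiac muscle markers summed to 4.88 and 2.43 RPKM in DKO, 4.14 and 27.7 in KO and 20.4 and 8.37 in WT. Neural markers summed to 52.6 and 54.9 RPKM in DKO, 47.5 and 39.9 in KO and 15.1 and 16.0 in WT. The part of cell makeup in the Jun and Fosl2 differences was not tested.

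Compared directly at the differentiated stage, with day as a block, Fosl2 was lower in DKO than in WT, the log2 fold change being -2.92 (SE 0.33, edgeR adjusted p = 0.0465). It was the 1 gene of the 8 tested that passed, against 2.18% of 12896 genes (1.52% higher and 0.659% lower). That share was 0% without any 1 of the DKO or KO libraries, 1.48% without WT day 8 and 14.3% without WT day 12. The call was lost without KO day 8 (adjusted p = 0.0678), KO day 12 (adjusted p = 0.0527), DKO day 8 (adjusted p = 0.301) or DKO day 12 (adjusted p = 0.252). Jun had a value of -1.84 (SE 0.31, adjusted p = 0.0582), which passed with DESeq2 (adjusted p = 3.74e-06), in both limma fits (adjusted p = 0.0422 and 0.0392) and without WT day 12 (adjusted p = 0.0291). Junb, at -1.46 (adjusted p = 0.179), passed with DESeq2 (adjusted p = 0.0319) and without WT day 8 (adjusted p = 0.0399). DESeq2 called 24.3% of all genes in this comparison. Ier2 had a value of 0.69 (SE 0.20, adjusted p = 0.109) and Fosl1 of 0.88 (SE 0.55, adjusted p = 0.335). Ier3 was at -1.14, Fos at -0.36 and Jund at -0.24 (adjusted p from 0.478 to 0.785).

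In KO against WT differentiated cells edgeR called none of the 8 genes and 0% of 12896, while 4 of the 8 and 3002 of all genes had an unadjusted p under 0.05. DESeq2 called 3 of the 8, all lower, against 14.2% of all genes, and limma none. These were Fosl2 at a DESeq2 log2 fold change of -1.61 (adjusted p = 0.000769), Junb at -1.69 (adjusted p = 0.0233) and Jund at -1.33 (adjusted p = 0.0274). The edgeR values were -1.57 for Fosl2 (SE 0.31, adjusted p = 0.114), -1.65 for Junb (SE 0.59, adjusted p = 0.199) and -1.29 for Jund (SE 0.45, adjusted p = 0.191). Jun had a value of -0.88 (SE 0.30, adjusted p = 0.19), Fos of -0.83 (adjusted p = 0.53), Fosl1 of 0.57 (adjusted p = 0.563), Ier2 of 0.18 (adjusted p = 0.61) and Ier3 of -0.03 (adjusted p = 0.989). In day 12 against day 8, with 1 library per genotype and day, edgeR also called none of the 8 and 0% of 12896 genes, with 2 of the 8 and 1582 of all genes at an unadjusted p under 0.05. DESeq2 called 2, against 4.37% of all genes, and limma none. Fosl2 was higher at day 12 than at day 8 in each genotype, by 1.55 on the log2 scale (SE 0.26, edgeR adjusted p = 0.373, DESeq2 adjusted p = 0.000173), and so was Jun, at 1.03 (SE 0.25, edgeR adjusted p = 0.373, DESeq2 adjusted p = 0.0203). The other 6 had values of 0.58 for Junb, 0.42 for Jund, -0.05 for Fos, -0.21 for Ier2, -0.35 for Fosl1 and -0.41 for Ier3 (edgeR adjusted p from 0.645 to 0.978).

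Across the 12 libraries the pattern of Jun was most like those of Cpd, a carboxypeptidase (Pearson r = 0.988), Zfp362 (0.982) and Tet3, a DNA demethylation enzyme (0.980), over log2 CPM and among 9964 other genes. Fos was most like H2-Ab1, an MHC class II chain (0.960), Rnf19a (0.945) and Ppp1r3f (0.941). Fosl1 was most like Dgka (0.959), Wwp2 (0.957) and Stmn3 (0.949), among 9965 genes, and Ier3 was most like Ankrd37 (0.972), Egln3, an oxygen-sensing hydroxylase (0.966), and Ezh1 (0.965). These libraries share genotype and stage, so the values describe likeness alone. Fosl1 overlaps the gene Ccdc85b and Egr2 overlaps Gm32255 in the annotation, and since the sources used here do not give the strand use of the counting, their reads may be shared.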

How the data were processed

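Polyadenylated RNA of 12 libraries was analysed. Per the labels' protocols, libraries were made with the NEBNext Ultra II kit and sequenced on an Illumina platform, and the alignment used Bowtie2 and mm9, per the submitters' processing notes. The authors deposited whole-number read counts per transcript model, and RPKM values that divide these counts by exon length and a library total. The sources used here name no counting program.

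Counts were tested with edgeR 4.0.16 quasi-likelihood fits (R 4.3.3, TMM scaling, Benjamini-Hochberg over all genes tested, threshold 0.05) for genes at 1 deposited RPKM or more in 2 or more of the fitted libraries. The ES fit used 6 libraries (3 residual degrees of freedom), the differentiated fit 6 libraries with genotype and day (2), the mean over genotypes 12 libraries with genotype and state (8), and changes within genotypes and their differences 12 libraries with a mean per genotype and state plus day (5). Levels are deposited RPKM, chosen for display after the values were seen, and fold changes are TMM-scaled. Standard errors were obtained as log2 fold change over the root of F. DESeq2 1.42.0 and limma 3.58.1 (on log2 of RPKM plus 1 or 0.1) were alternatives, as were RLE scaling, other filters, the most-read model, a block for replicate number and the omission of each library in turn. Tests were tried on simulated counts. Python 3.11.15, pandas 2.3.3, numpy 2.4.6 and matplotlib 3.10.9 were also used.

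The 10 genes and the lists were chosen with earlier results of these data known. Each of the 10 genes is given a value in each comparison that tested it. From each list the genes named are among the 3 with the smallest adjusted p, and for likeness the 3 with the highest correlation (prior count 2, at least 5 RPKM in 1 library). The promoters printed, those of the genes called in ES cells of both mutants, were chosen after the motif search was seen. Promoters are from RefSeq. Chromosomes were matched by symbol for 89.0% of genes tested in ES cells.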

Additional observations from a re-analysis of the deposited data

Results flagged for a closer look

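The change with differentiation differed between a mutant and WT, by the edgeR test of the difference itself, for 4 of the 8 genes tested in each mutant, against 42% of all genes in DKO and 16.3% in KO. In DKO the log2 difference from WT was -4.67 for Jun, -3.69 for Fosl2, -2.12 for Jund and 0.90 for Ier2. In KO it was -2.44 for Jun, -1.52 for Fosl2, -2.13 for Jund and 0.91 for Ier2. These differences share the WT libraries, and each also takes in the difference between mutant and WT in ES cells. In ES, then differentiated cells, DKO against WT was 2.79 and -1.84 for Jun, 1.85 and -0.24 for Jund and -0.25 and 0.69 for Ier2. KO against WT was 1.55 and -0.88 for Jun, 0.84 and -1.29 for Jund and -0.73 and 0.18 for Ier2. Fosl2, untested in ES cells, was at -2.92 in DKO and -1.57 in KO differentiated cells. Of the differentiated values, that of Fosl2 in DKO alone passed in edgeR. Among the differences in change with differentiation, those of Jun and that of Fosl2 in DKO passed in each alternative run. The libraries on which the other 5 depend are named with the results.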

How the results depend on the processing

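With all 12 libraries in the fit, edgeR called 2 of the 10 genes in KO against WT ES cells and 3 in DKO against WT ES cells, in place of 5 each. With no filter on low values it called 8 in DKO against KO ES cells, in place of 5, the additional genes being Fosl1, Fosl2 and Egr2. DESeq2 called 3 in KO against WT differentiated cells, 3 in DKO against WT differentiated cells and 2 in day 12 against day 8, in place of 0, 1 and 0, and both limma fits called 2 in DKO against WT differentiated cells. The cause was not tested. The replicate block left 5 genes called in each ES comparison. Libraries with the same number did not deviate together (correlations of -0.0302 for KO and WT, -0.0552 for DKO and WT and -0.0549 for DKO and KO). These values cannot tell whether libraries of the same number were prepared together, and the labels give no batch.

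With 1 library left out at a time, the number called ranged from 5 to 6 in DKO against WT ES cells, 3 to 6 in KO against WT and 4 to 6 in DKO against KO. It ranged from 5 to 6 in differentiated against ES cells, from 1 to 3 within DKO, 2 to 5 within KO and 5 to 8 within WT, and from 2 to 6 for the DKO and 1 to 6 for the KO difference from the WT change. It was 0 to 2 in DKO against WT differentiated cells, and 0 throughout in KO against WT differentiated cells and in day 12 against day 8. Such fits have fewer residual degrees of freedom.

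Sign changes were found for values that did not pass the test. On RPKM with limma (pseudocounts of 1 and 0.1), the log2 fold change was 0.042 in both fits for Jund in KO differentiated against KO ES cells, 0.30 and 0.32 for Ier3 in KO against WT differentiated cells, and 0.044 and 0.034 for Fos in day 12 against day 8. With 1 library left out, Junb ranged from -0.22 to 0.10 in DKO against KO ES cells. In differentiated against ES cells of DKO, Jun ranged from -0.64 to 0.22, Fos from -0.58 to 1.73, Junb from -0.25 to 0.86 and Jund from -0.71 to 0.39. In those of KO, Junb ranged from -0.42 to 0.53 and Jund from -0.33 to 0.013. The difference from the WT change ranged from -0.65 to 2.49 for Ier3, -1.75 to 0.21 for Junb and -0.11 to 1.05 for Fosl1 in DKO, and from -1.76 to 1.41 for Ier3 in KO. Against WT differentiated cells, DKO ranged from -1.56 to 0.69 for Fos, -0.88 to 0.44 for Jund and -2.53 to 0.62 for Ier3, and KO from -1.65 to 0.41 for Fos and -1.22 to 1.92 for Ier3. In day 12 against day 8 the ranges were -0.06 to 0.97 for Junb, -0.0070 to 0.80 for Jund, -0.75 to 0.71 for Fos and -1.39 to 0.48 for Ier3.

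The median of all genes moved by over 0.1 only in limma on RPKM, to 0.122 in differentiated against ES cells with a pseudocount of 0.1, to 0.13 within WT with 0.1 (0.0193 and 0.0225 in edgeR), and to 0.14 and 0.172 within KO with pseudocounts of 1 and 0.1 (0.0169 in edgeR). Under them Jun, Fosl2, Ier2 and Ier3 kept their direction in KO and WT cells. Limma with a pseudocount of 0.1 also moved the split of calls over all genes, to 3137 higher and 1585 lower in differentiated against ES cells (2699 and 2104 in edgeR), to 1625 and 910 within DKO (1400 and 1241) and to 2602 and 1233 within KO (2119 and 1814).

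Counts over all genes also depended on the fit. KO against WT ES cells had 5142 genes called, 3265 with a filter of 5 RPKM and 2022 with all 12 libraries, and DKO against WT ES cells 7692 and, with all 12 libraries, 5089. DKO against WT differentiated cells had 281 (196 higher and 85 lower), 3139 with DESeq2 (1309 and 1830), 714 and 911 with limma and from 0 to 1816 with 1 library left out. KO against WT differentiated cells had 0, 1836 with DESeq2, 7 with no filter and 136 and 160 with limma, and day 12 against day 8 had 0 and, with DESeq2, 563. The KO difference from the WT change had 2190 and, with DESeq2, 3308. With 1 library left out, that count ranged from 395 to 3891, the DKO difference (5638) from 3612 to 6763, KO against WT ES cells from 3206 to 6368, differentiated against ES cells (4803) from 2938 to 6165, DKO differentiated against DKO ES cells (2641) from 506 to 4546 and KO differentiated against KO ES cells (3933) from 1010 to 5662. The differentiated comparisons rest on 1 library per genotype and day. With a pseudocount of 1, limma gave smaller called values for genes of low RPKM, among them 1.16 for Fos in DKO against WT ES cells, -1.81 for Ier3 in DKO against KO ES cells and, in differentiated against ES cells, 2.12 for Fosl2 in KO, 2.64 for Ier3 in DKO and 3.53 for Fosl2, 2.11 for Fos and -0.66 for Fosl1 in WT. By the same fit Fosl2 had 2.15 in the mean over genotypes and -2.73 for the DKO difference from the WT change.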
